A study of Mus musculus with 43 samples.

Results

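Environmental enrichment was compared with standard housing in the open chromatin that both ATAC-seq count tables of the series share. All 19 ATAC libraries were used: the 160718Tsa table holds 6, from females, and the 171030TsaA counterpart 13, from males. An autosomal region of one table was joined to a region of the other where their overlap covered at least 50% of both. This gave 48633 regions joined 1 to 1, which are 30.0% of the 161879 autosomal regions of the female table and 25.8% of the 188633 of the male table. The libraries of 9 enriched (EE) and 10 standard-housed (SH) samples were fitted together with the table as a block and without an interaction term, so the values below describe the housing difference common to both tables.

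The animals were wildtype mice of the outbred Swiss Webster stock, weaned at postnatal day 25 and then caged under either condition until 2 months of age. Standard cages held wood chips and a nestlet, and enriched cages were larger and added a running wheel, a tube, more nesting material and toys that were changed regularly. Frontal cortex was fixed with PFA, and neuronal nuclei were collected by flow sorting on NeuN, a nuclear protein of neurons. There were 3 EE and 3 SH libraries from females and 6 EE and 7 SH libraries from males. The labels do not say that replicates came from separate animals, so a p-value measures the spread between these samples, which may be technical. Sex, table and any other difference between the 2 tables, such as a batch, coincide and cannot be told apart.

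ATAC-seq uses a transposase that inserts sequencing adapters where DNA is accessible, so the reads pile up at promoters and at distal elements such as enhancers. In neurons, accessibility near immediate early genes (Fos, the Egr genes, Arc) is known to move with electrical activity, while most promoters of widely used genes stay open. Enriched housing is a classic treatment for raising sensory, motor and social stimulation in rodents. In sorted nuclei measured in bulk, fewer cells of a type with an open region and less opening per cell cannot be told apart.

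The total count per library ran from 19075368 to 26257066 in the female table and from 27665194 to 73835546 in the male table, of which 51.5 to 52.2% and 39.9 to 42.1% lay in joined regions. A joined region had a median width of 734 bp in the female table and 1065 bp in the male table, and levels are therefore not compared between tables. Levels are given as CPM (counts-per-million), the count of a region relative to all counts in joined regions of its library, after trimmed-mean scaling. By position, 7468 joined regions (15.4%) came within 1 kb of the start of a protein-coding gene and are called promoter regions, 22882 (47.1%) lay in gene bodies and 18283 (37.6%) were intergenic. Exons and introns were not separated.

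The RefSeq promoter windows of 4 genes (build GRCm38.p6, the 250 bases before a start, read 5′ to 3′) are shown because the regions over them are described below. Zfp966, on the minus strand at chr2:175931101-175931350, belongs to the region with the second smallest p of those lower in EE. Maff (plus strand, chr15:79347270-79347519), Egr2 (plus strand, chr10:67537316-67537565) and Dusp1 (minus strand, chr17:26508473-26508722) are immediate early genes whose windows hold motifs of activity-regulated factors. Capitals mark matches, on either strand, to the cAMP response element TGACGTCA, the serum response element, the E-box CACGTG and the EGR motif GCGNGGGCG, and no 2 matches overlap here.
Zfp966: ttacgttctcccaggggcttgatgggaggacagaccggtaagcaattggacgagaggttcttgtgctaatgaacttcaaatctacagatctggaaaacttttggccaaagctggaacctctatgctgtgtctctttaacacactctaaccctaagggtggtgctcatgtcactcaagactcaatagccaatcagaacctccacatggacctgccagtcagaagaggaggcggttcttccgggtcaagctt
Maff: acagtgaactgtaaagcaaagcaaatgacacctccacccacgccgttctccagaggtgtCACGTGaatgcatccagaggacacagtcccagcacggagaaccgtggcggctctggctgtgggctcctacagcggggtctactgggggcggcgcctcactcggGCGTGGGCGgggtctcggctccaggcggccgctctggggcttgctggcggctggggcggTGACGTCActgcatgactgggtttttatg
Egr2: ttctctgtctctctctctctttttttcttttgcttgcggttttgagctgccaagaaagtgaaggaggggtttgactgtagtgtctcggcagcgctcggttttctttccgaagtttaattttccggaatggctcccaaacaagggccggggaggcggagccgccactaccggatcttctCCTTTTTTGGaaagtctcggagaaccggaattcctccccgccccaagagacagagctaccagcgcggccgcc
Dusp1: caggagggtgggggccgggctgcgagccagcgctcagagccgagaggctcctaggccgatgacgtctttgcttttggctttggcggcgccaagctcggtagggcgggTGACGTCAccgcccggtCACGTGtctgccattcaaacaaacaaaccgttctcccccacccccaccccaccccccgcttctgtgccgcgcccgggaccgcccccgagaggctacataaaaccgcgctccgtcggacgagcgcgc

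No joined region differed between EE and SH past the threshold. With edgeR's quasi-likelihood test and Benjamini-Hochberg adjustment, 0 of 48633 regions (0.0%) had an adjusted p under 0.05, and the smallest adjusted p was 0.523. At an unadjusted p under 0.05 there were 2486 regions (5.11% of those tested), 1386 higher in EE (2.85%) and 1100 lower (2.26%). DESeq2 called 5 regions and limma-voom 0, with 2705 and 2851 at an unadjusted p under 0.05. The fitted differences were small: the median log2 fold change (EE over SH) was -0.004 with a median standard error of 0.096, and for the middle of the distribution, from the 10th to the 90th percentile, the error ran from 0.062 to 0.149. Only 70 regions (0.144%) had a log2 fold change beyond 0.5 in either direction and 3 beyond 1, over a range from -1.04 to 2.25.

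Fitted alone, the tables gave different numbers of low p-values over the same regions. In the female table, 35 of 48632 regions (0.072%) were called and 4204 (8.64%) had an unadjusted p under 0.05, and those higher in EE were 5.02% and those lower 3.62% of the regions tested. In the male table, none was called (edgeR) and 1708 (3.51%) had an unadjusted p under 0.05, with 1.95% of the regions tested higher and 1.57% lower. The sign of the housing difference was the same in both tables in 25947 of 48631 regions (53.4%), with a Pearson correlation of 0.068 across regions, which are not independent replicates. Promoter regions had the same sign in 61.9%, gene body regions in 51.4% and intergenic regions in 52.3%. An unadjusted p under 0.05 in both tables was found for 157 regions, 3.73% of the female and 9.19% of the male ones: 63 were higher in EE in both, 32 lower in both and 62 opposite. The shares of 3.73% and 9.19% were near those of all regions at such a p in the other table, 3.51% in males and 8.64% in females. Of the 80 intergenic ones, 45 were higher in both, 4 lower in both and 31 opposite. Such a p was found for 1949 of 18281 intergenic regions in the female and 751 in the male table, of which the 80 are 4.1% and 10.7%. Shares by direction within each class and table were not computed, so the counts by direction are descriptions. The 68 in gene bodies had 17 higher, 20 lower and 31 opposite, and the 9 promoter regions 1 higher, 8 lower and 0 opposite.

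**Figure D1:**
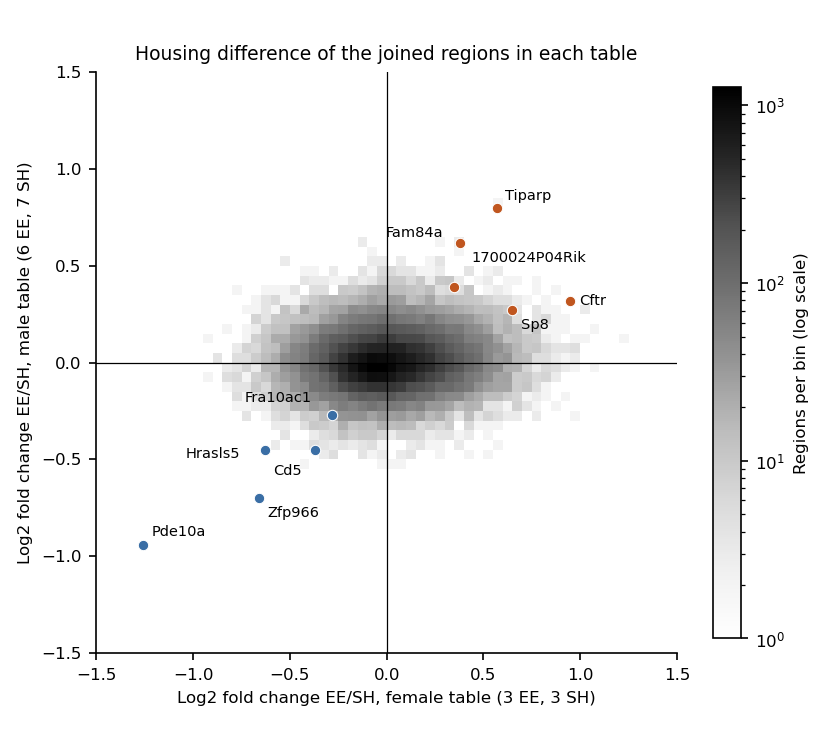
Log2 fold change (EE over SH) of the joined regions in the female table (horizontal axis, 3 EE and 3 SH libraries) and in the male table (vertical axis, 6 EE and 7 SH libraries), as the number of regions per bin of 0.05 on a log grey scale, with 11 regions outside the axes. The cloud has no visible slope (Pearson correlation 0.068). The 10 coloured regions, the 5 with the smallest p in each direction, are lower in both tables (blue) or higher in both (orange). They were picked by their p in the fit over both tables, which favours regions with the same sign in each. The matching signs therefore add no support of their own.

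The region with the smallest p was the promoter of Hrasls5, which encodes an acyltransferase of phospholipid metabolism (chr19:7612199-7612692 in the female table, chr19:7612022-7612793 in the male table). The 3 female EE libraries had 5.01, 4.61 and 5.02 CPM and the 3 female SH libraries 5.5, 7.8 and 9.34 CPM. Male EE libraries ran from 5.77 to 7.61 CPM (median 6.59) and male SH libraries from 8.28 to 10.0 CPM (median 8.96). EE and SH libraries did not overlap in either table, which held for 1 of the 48633 regions (0.00206%) in the same direction in both. Within single tables the groups were apart in 6415 regions (13.2%) for the female and 54 (0.111%) for the male table. The region was picked by its p from these same values, so the separation adds no support of its own. The log2 fold change was -0.50 ± 0.10 (SE), with a 95% interval from -0.70 to -0.30 (edgeR, adjusted p = 0.523), and it was -0.63 in the female and -0.45 in the male table.

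The promoter region of Zfp966, a member of a cluster of closely related zinc finger genes, was also lower in EE (chr2:175930893-175931350). Female EE libraries had 5.89, 7.46 and 7.03 CPM and female SH libraries 10.3, 8.91 and 12.9 CPM, without overlap. Male EE libraries ran from 2.51 to 6.58 CPM (median 3.73) and male SH libraries from 4.62 to 8.8 CPM (median 7.07), with overlap. The log2 fold change was -0.69 ± 0.14 (edgeR, adjusted p = 0.523), -0.66 in the female and -0.70 in the male table. Because near-identical copies of these genes can share reads, the value is uncertain. The window of Zfp966 printed above holds none of the motifs searched and has a GC content of 48.8%, beside 54.0% for Egr2, 64.0% for Maff and 68.4% for Dusp1.

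A pair of intergenic regions on chromosome 19 were lower in EE as well. At 14.5 kb upstream of Fra10ac1, named for a fragile site (chr19:38238079-38239185), female EE libraries had 28.1, 39.3 and 35.0 CPM and female SH libraries 37.8, 42.0 and 44.2 CPM. Male EE libraries there ran from 37.2 to 42.6 CPM (median 40.4) and male SH libraries from 45.2 to 52.5 CPM (median 46.8), so that the groups overlapped in the female table and not in the male one. EE over SH, this gave -0.27 ± 0.06 on the log2 scale (edgeR, adjusted p = 0.641). At 34.4 kb upstream of Cd5, which encodes a lymphocyte surface receptor (chr19:10772940-10773874), female EE libraries had 12.8, 10.3 and 12.2 CPM and female SH libraries 14.9, 16.9 and 13.8 CPM. In males the range was 7.15 to 10.3 CPM in EE (median 7.76) and 8.8 to 13.4 CPM in SH (median 10.8), and the fold change over both tables was -0.42 ± 0.09 on the log2 scale (edgeR, adjusted p = 0.641).

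The largest negative difference of all was inside Pde10a, a phosphodiesterase gene used strongly by striatal projection neurons, 146 kb from its start (chr17:8670957-8671674). Female EE libraries had 2.58, 2.85 and 2.29 CPM and female SH libraries 8.38, 6.78 and 3.33 CPM. Male EE libraries ran from 1.46 to 2.61 CPM (median 1.95), all low, and male SH libraries from 1.34 to 5.57 CPM (median 4.00), with 3 of the 7 below the highest EE library. The fitted difference was -1.04 ± 0.23 on the log2 scale with an interval from -1.52 to -0.56 (edgeR, adjusted p = 0.764). Nuclear RNA of the gene had a log2 fold change of -0.17 ± 0.08 (edgeR, adjusted p = 0.618).

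Among regions higher in EE, the smallest p belonged to an intergenic region 64.6 kb from the start of Tiparp, an ADP-ribosyltransferase gene (chr3:65592888-65593060). Female EE libraries had 3.63, 3.87 and 2.94 CPM and female SH libraries 2.31, 2.53 and 2.17 CPM. Male EE libraries ran from 2.52 to 4.03 CPM (median 3.35) and male SH libraries from 1.36 to 3.45 CPM (median 1.71). A single male SH library, replicate 6, stood within the EE range and the other male SH libraries were all below the lowest EE library. The log2 fold change was 0.73 ± 0.15 with an interval from 0.42 to 1.04 (edgeR, adjusted p = 0.523).

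The 4 other leading regions higher in EE were intergenic too. At 140 kb upstream of Sp8, a transcription factor gene of interneuron development (chr12:118706403-118707033), female libraries had 19.1, 17.1 and 16 CPM in EE and 14.0, 10.1 and 8.92 CPM in SH. Male libraries there had medians of 22.2 CPM in EE (20.7 to 28.4) and 18.8 CPM in SH (16.9 to 23.5), and the log2 fold change was 0.38 ± 0.09 (edgeR, adjusted p = 0.764). At 153 kb from the start of the chloride channel gene Cftr (chr6:18322909-18323581), female libraries had 12.5, 13.3 and 10.7 CPM in EE and 8.93, 3.24 and 6.34 CPM in SH, and male medians were 15.8 CPM (12.3 to 16.6) and 11.7 CPM (9.7 to 14.6). Its log2 fold change was 0.49 ± 0.12, 0.95 in the female table and 0.32 in the male one. At both, groups were apart in the female table and overlapped in the male one.

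The regions nearest to 1700024P04Rik (10.9 kb upstream, chr13:98995260-98995635) and Fam84a (170 kb upstream, chr12:14322227-14322602) had overlapping groups in both tables. For 1700024P04Rik the male medians were 13.1 CPM in EE (11.8 to 15.4) and 10.4 CPM in SH (8.52 to 12.6), the female libraries had 9.53, 11.3 and 12.3 CPM against 7.74, 10.0 and 8.34 CPM, and the log2 fold change was 0.38 ± 0.09. For Fam84a the male medians were 6.42 CPM in EE (5.84 to 7.68) and 4.09 CPM in SH (3.06 to 6.25), the female libraries had 7.27, 7.31 and 3.94 CPM against 4.15, 5.87 and 4.25 CPM, and the log2 fold change was 0.55 ± 0.13. In both the adjusted p of edgeR was 0.764.

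**Figure D2:**
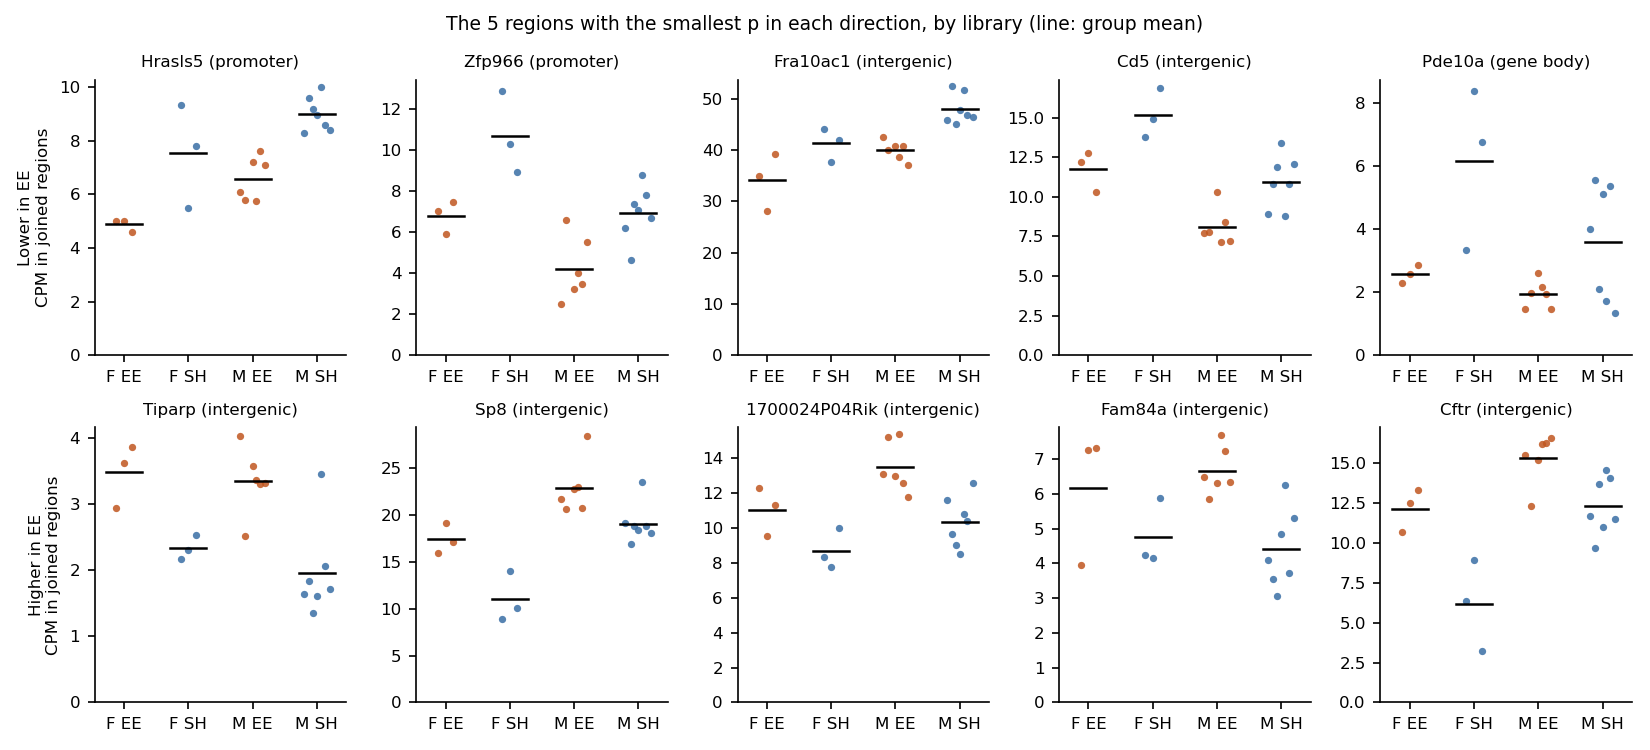
Level (CPM in joined regions, linear axis from 0) of the 10 leading regions in each library (points) of the 4 groups (F, female table, and M, male table), with the group mean as a line; the top row is lower and the bottom row higher in EE, and titles give the nearest gene and class. For Hrasls5 every EE library lies under every SH library of its table, while among males 1 SH library of Tiparp (3.45 CPM) lies within the EE range.

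By class, promoter regions leaned lower in EE and intergenic regions higher. Of 7468 promoter regions 1705 (22.8%) had a positive log2 fold change and 5763 a negative one, with a median of -0.040, against 48.1% positive and a median of -0.004 over all joined regions. Of 18283 intergenic regions 59.5% were positive with a median of 0.025, and gene body regions, 47.2% positive, had a median of -0.007, whose sign changed among 30 alternatives (-0.009 to 0.007). Within the female and male tables the medians were -0.067 and -0.028 for promoter regions and 0.055 and 0.010 for intergenic ones. By edgeR none passed the threshold in any class, and the 5 regions that DESeq2 called were 2 promoter regions (Hrasls5 and Zfp966) and 3 intergenic ones (Cd5, Fra10ac1 and Tiparp). Without female SH replicate 2 the median of promoter regions was -0.025, and without male SH replicate 6 that of intergenic regions was 0.038. Regions with an unadjusted p under 0.05 were 3.41% of promoter (22 higher, 233 lower), 4.93% of gene body and 6.03% of intergenic regions (866 higher, 237 lower).

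The same lean followed distance and level. The median log2 fold change was -0.040 for regions centred within 1 kb of a gene start, -0.027 from 1 to 10 kb, 0.002 from 10 to 100 kb and 0.033 beyond 100 kb, where 62.5% of 12516 regions were positive. With the regions in 4 equal bins by mean level, the median was -0.025 in the highest bin, where 42.8% were promoter regions, and 0.009, 0.011 and 0.005 from the lowest bin up to the next highest.

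Measured per library, the share of joined counts in promoter regions was 35.04 ± 0.499% in female EE and 36.24 ± 1.44% in female SH libraries (SD, n = 3 each), and 34.41 ± 0.566% (n = 6) and 34.77 ± 0.379% (n = 7) in male EE and SH libraries. Centred within tables, the difference was -0.627 percentage points (exact permutation test over 34320 arrangements, two-sided, p = 0.0719, adjusted p = 0.503 over 7 library measures). The shares overlapped in both tables, from 34.54 to 35.54% against 34.72 to 37.59% in females and from 33.64 to 35.29% against 34.35 to 35.29% in males. The other 6 measures, among them total count, the share of counts in joined regions and the mean level of 156 regions near glial and vascular marker genes, had an adjusted p of 0.508 each by the exact permutation test. With the promoter share as a covariate, an alternative chosen after the data were seen, the median of promoter regions was -0.003 and that of intergenic regions 0.007. This share is built from the same promoter counts, so the covariate takes out a promoter difference by construction and is no separate measure of it. The first principal component of the levels, 23.2% of the variance within tables, ran from -58.7 in male SH replicate 6 to 35.8 in male EE replicate 3.

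**Figure D3:**
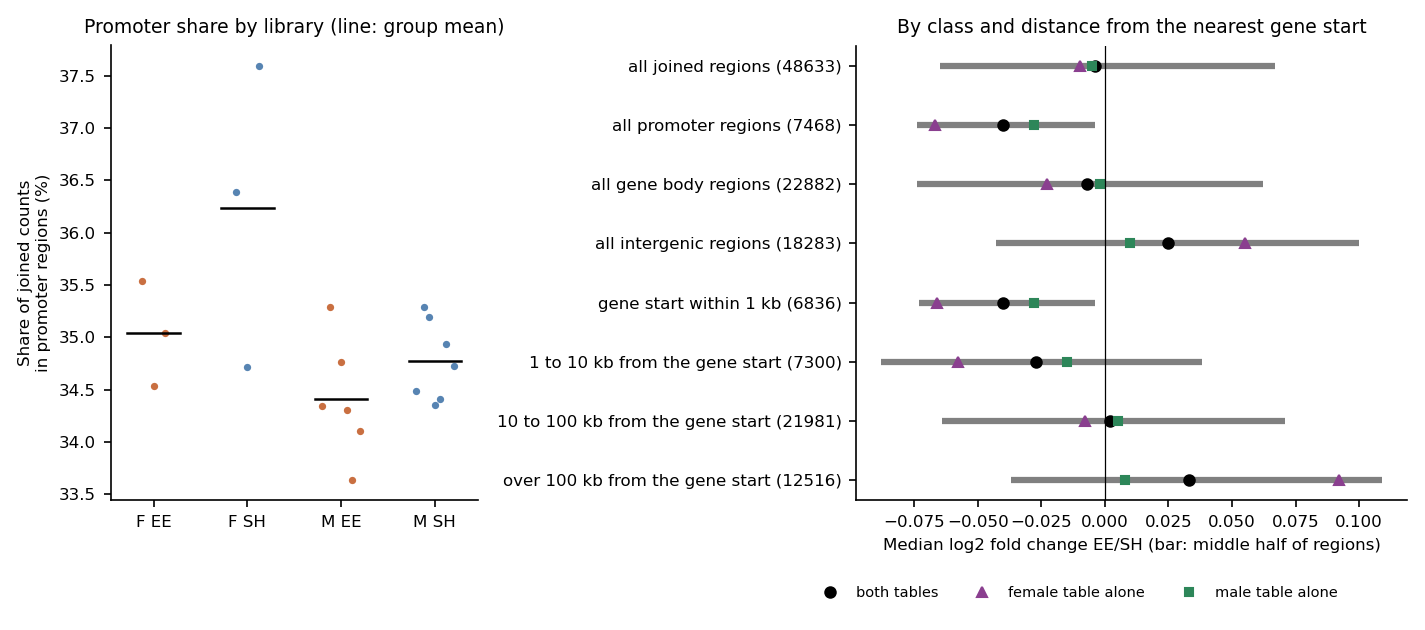
Left, share of joined counts in promoter regions (percent, axis not from 0) in each library, with group means as lines. Right, median log2 fold change (EE over SH) by region class and by distance from the nearest protein-coding gene start, over both tables (circles, with the interquartile range of regions as a bar) and in each table alone. Medians run from -0.040 at promoters to 0.033 beyond 100 kb, with the same order in each table.

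Regions near neuronal and glial genes were described by 18 gene lists, each holding the joined regions whose nearest protein-coding start, within 100 kb, belonged to a member. No region of any list passed the threshold, and over all 36117 regions within 100 kb the median log2 fold change was -0.016, with 43.1% positive and 4.54% at an unadjusted p under 0.05. Promoter regions made up 20.7% of these 36117 and 4.0 to 16.9% of the lists, so the lists differ from that background in region class. List medians ran from -0.065 for immediate early genes to 0.036 for astrocyte markers. Single libraries moved both: the first was -0.031 without female SH replicate 3, and the second 0.007 without male EE replicate 4 and 0.019 to 0.023 without each of 6 others (male EE replicates 1 and 2, male SH replicates 3, 4 and 7, and female EE replicate 2). The lists overlap in a few genes and were chosen with earlier results of these data known, so the counts are descriptions. Under 30 alternatives of processing, the list medians stayed negative for immediate early, postsynaptic, vesicle cycle, chromatin and oligodendrocyte genes and positive for upper-layer, striatal and astrocyte markers. The sign of the median changed under at least 1 alternative for the other 10 lists. A stable sign over both tables did not always hold within each. Female and male medians were -0.116 and 0.004 for oligodendrocyte genes and -0.028 and 0.03 for striatal markers, and had 1 sign for the others with a stable sign. Among lists with a stable sign, regions with the same sign in both tables ran from 18 of 48 (oligodendrocyte) to 82 of 135 (vesicle cycle), beside 53.4% of all joined regions.

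Immediate early genes, which neurons transcribe within minutes of stimulation, had 109 regions near 26 genes. Of these 75 were lower and 34 higher in EE (31.2% positive, beside 43.1% of all regions within 100 kb), with medians of -0.183 in the female and -0.009 in the male table. At an unadjusted p under 0.05 were 8 regions (7.34%), 7 lower and 1 higher. The 7, named because they were few, were regions assigned to Egr3 (-0.17), Fos (-0.15), Nr4a1 (-0.37), Npas4 (-0.46), Dusp1 (-0.30), Dusp6 (-0.13) and Maff (-0.24), given as log2 fold changes, and the higher one was assigned to Klf4 (0.21). All 8 lay outside promoter regions, and the joined promoter regions of Dusp1 (0.01), Dusp6 (-0.05) and Maff (-0.13) were not among them.

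The region assigned to Egr3, an activity-induced transcription factor gene, lay 75.7 kb upstream of it within Pebp4 (chr14:69999052-70003928). Female EE libraries had 116, 114 and 117 CPM and female SH libraries 121, 127 and 155 CPM, without overlap. Male EE libraries ran from 85.9 to 107 CPM (median 92.0) and male SH libraries from 95.7 to 114 CPM (median 100), with overlap. The log2 fold change was -0.17 ± 0.05 (edgeR, adjusted p = 0.834).

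Promoter regions were joined for 16 of the 26 immediate early genes. Of these 14 were lower and 2 higher in EE, with a median of -0.083 (-0.221 in the female and -0.009 in the male table), and none had an unadjusted p under 0.05. Over all promoter regions 5763 of 7468 were lower, with a median of -0.040. Arc, which encodes a synaptic protein, had 178, 179 and 134 CPM in female EE and 209, 192 and 277 CPM in female SH libraries. Male libraries of Arc had 115 to 235 CPM in EE and 111 to 197 CPM in SH, so that females were apart and males overlapped. Its log2 fold change over both tables was -0.12 ± 0.15, -0.47 in the female and 0.03 in the male table.

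Promoters of the transcription factor genes Junb, Egr2 and Maff likewise had negative values in the female table and values near 0 in the male table. Junb stood at -0.09 ± 0.07 (-0.30 in the female and 0.00 in the male table), Egr2 at -0.09 ± 0.07 (-0.29 and 0.00) and Maff at -0.13 ± 0.12 (-0.48 and 0.01), all as log2 fold changes. Klf10, with the smallest p of the 16 (edgeR, 0.0643), had 169, 164 and 171 CPM in female EE, 189, 200 and 209 CPM in female SH, 191 to 204 CPM in male EE and 183 to 213 CPM in male SH libraries. The phosphatase gene Dusp1 was at 0.01 ± 0.11. The mean log2 CPM over the 16 promoters was 6.18 ± 0.05 in female EE and 6.38 ± 0.15 in female SH libraries, and 6.13 ± 0.14 and 6.14 ± 0.15 in the male groups (SD), so that only the female groups stood apart, at 6.128 to 6.21 against 6.231 to 6.524. Over all promoter regions the mean was 5.06 ± 0.03 in female EE and 5.12 ± 0.08 in female SH, and 5.08 ± 0.06 and 5.1 ± 0.04 in male EE and SH libraries. In the female table, 13.2% of single regions had groups apart.

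The median of the 16 was -0.114 without male EE replicate 3, -0.046 without female SH replicate 3, -0.038 under loess scaling over the mean level (13 lower) and -0.039 with 1 surrogate variable (11 lower). With the promoter share as a covariate, which lowers promoter differences by construction, it was -0.011 (8 higher, 8 lower). The mean level of regions near glial and vascular markers, given as log2 CPM, was 3.332 to 3.366 in female EE and 3.371 to 3.404 in female SH libraries, and 3.391 to 3.474 and 3.335 to 3.423 in male EE and SH libraries. Its part in the values was not tested.

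**Figure D4:**
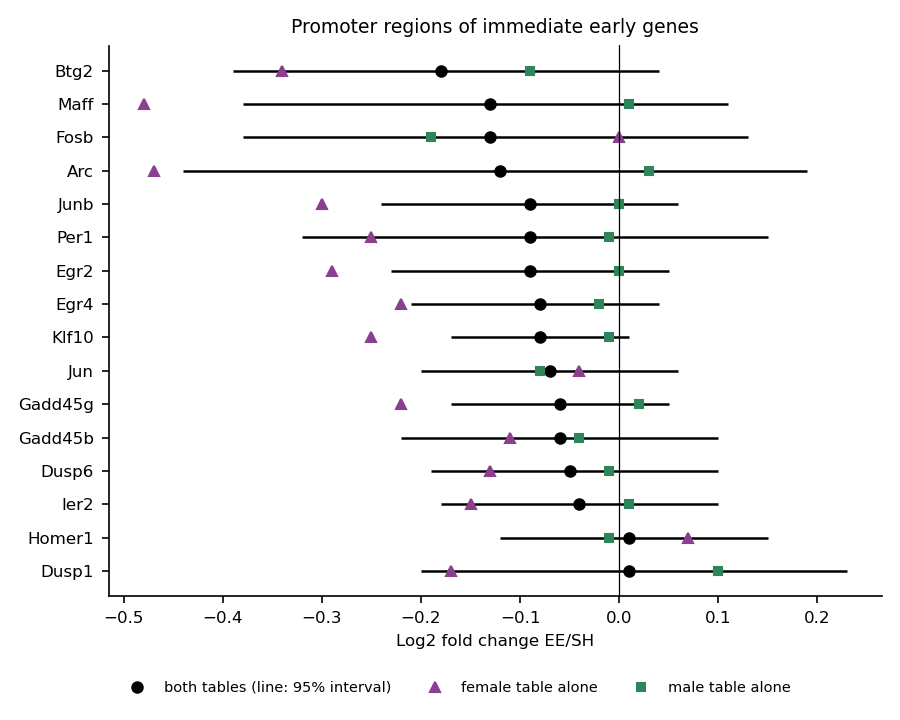
Log2 fold change (EE over SH) of the 16 joined promoter regions of immediate early genes over both tables (circles, with the 95% interval), in the female table alone (triangles) and in the male table alone (squares). All 16 intervals span 0; Arc and Maff lie at -0.47 and -0.48 in the female table and at 0.03 and 0.01 in the male table.

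Motifs of activity-regulated factors were searched in the promoter windows, and differences between promoters with and without them were not tested. Of the 16 immediate early promoters 11 had a RefSeq window, in which the cAMP response element was found for 2 (Maff and Dusp1), the serum response element for 1 (Egr2), the E-box for 5, the EGR motif for 3 and the AP-1 motif TGANTCA for 0. Among the 5271 promoter regions overlapping a window by at least 150 bp, the median log2 fold change was -0.042 with a cAMP response element (188 regions, 3.57%, against 1.55% of all 32817 windows) and -0.039 without. It was -0.035 with an AP-1 motif (3.30%, against 6.75%), -0.040 with a serum response element (0.93%, against 1.47%) and -0.040 with an E-box (9.09%, against 6.02%), and -0.039 without each. With an EGR motif (7.00%, against 4.70%) it was -0.049, and without it -0.038. The share of promoters higher in EE was 17.1% with and 22.3% without an EGR motif, and 4.88% and 3.10% had an unadjusted p under 0.05. For the serum response element, held by 49 promoters, 30.6% were higher with it and 21.8% without. For the other 3 motifs the share higher with the motif was 20.7 to 24.7%. A match says that these letters occur in the window and not that a factor binds there.

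The delayed activity-regulated genes, secreted factors and others that follow the immediate early wave, were split evenly, with 54 of 105 regions higher, 51 lower and a median of 0.003. Their lowest p lay 93.5 kb upstream of Pcsk1, a prohormone convertase gene (0.38 ± 0.15, edgeR, adjusted p = 0.954), and the promoter of the pentraxin gene Nptx2 was at -0.18 ± 0.09. Female libraries of the Pcsk1 region (chr13:74996148-74996427) had 4.68, 4.53 and 3.37 CPM in EE and 3.91, 3.14 and 2.92 CPM in SH. The male medians were 2.89 CPM (1.54 to 3.2) and 2.06 CPM (1.61 to 2.73), and groups overlapped in both tables.

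Clock genes had 27 of 77 regions higher and 50 lower (35.1% higher, beside 43.1% of all regions within 100 kb), with a median of -0.037. The region with the lowest p lay 67.2 kb upstream of Arntl, which encodes BMAL1 of the activating arm (chr7:113139929-113140657; -0.19 ± 0.08, edgeR, adjusted p = 0.954). Of 13 promoter regions of clock genes 11 were lower, among them those of the repressors Per1 (-0.09), Per2 (-0.06) and Per3 (-0.08), with a median of -0.048. This was near the background, as 5763 of all 7468 promoter regions were lower, with a median of -0.040. The median of the 13 was -0.069 without male EE replicate 3, -0.018 without female SH replicate 3 and 0.002 with 1 surrogate variable (7 higher, 6 lower), so its direction depends on the processing. With the promoter share as a covariate, which takes out a promoter difference by construction, it was 0.041 (11 higher, 2 lower).

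Regions near synaptic and channel genes were positive in 34.5% (postsynaptic density), 40.0% (vesicle cycle) and 41.7% (channels), beside 43.1% of all regions within 100 kb, so the shares for vesicle cycle and channel genes were near the background. Of 139 regions near postsynaptic density genes 91 were lower (median -0.033), of 135 near genes of the vesicle cycle 81 (median -0.035) and of 163 near voltage-gated channel genes 95 (median -0.025). With 1 surrogate variable these medians were -0.000 (69 higher, 70 lower), -0.004 and 0.007. A gene body region of Shank3, a scaffold of excitatory synapses (chr15:89531914-89534816, 33.7 kb from the start), had 55.6, 54.5 and 53.8 CPM in female EE and 60.7, 61.6 and 60.9 CPM in female SH libraries. In males the medians were 35.6 CPM in EE (32.1 to 39.7) and 41.5 CPM in SH (33.1 to 46.1), with overlap, and the log2 fold change was -0.17 ± 0.06 (edgeR, adjusted p = 0.954).

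In the gene of the pacemaker channel Hcn2 (chr10:79725378-79726655), female libraries had 8.32, 7.46 and 9.96 CPM in EE and 11.1, 11.0 and 12.5 CPM in SH, and male medians were 4.47 CPM (3.55 to 5.04) and 5.22 CPM (4.03 to 5.55). Its log2 fold change was -0.28 ± 0.10 (edgeR, adjusted p = 0.954). Higher in EE was a gene body region of the vesicle protein gene Sv2b (chr7:75281618-75283390), with male medians of 36.0 CPM in EE and 31.7 CPM in SH and 0.15 ± 0.06 over both tables, 0.15 in each.

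Regions near markers of neuron types were split evenly or leaned higher, with a sign that changed among alternatives for deep-layer and interneuron markers. Regions near upper-layer markers were higher in 42 of 62 (median 0.029), near deep-layer markers in 37 of 65 (0.014), near interneuron markers in 33 of 65 (0.002) and near striatal markers in 44 of 77 (0.029). Female and male medians were 0.019 and 0.032 for upper-layer and -0.001 and 0.001 for deep-layer markers. They were -0.029 and 0.027 for interneuron and -0.028 and 0.03 for striatal markers. For all regions within 100 kb the share higher was 43.1%. Of those, 20.7% were promoter regions, a class with 22.8% higher, against 8.06 to 10.8% in these lists. The part of region class in the lean was not tested. A region within Pak7 assigned to Lamp5, a marker of upper layers and of some interneurons (chr2:136139686-136139970), had medians of 3.51 and 2.75 CPM in female EE and SH and 4.84 and 3.79 CPM in male EE and SH libraries (0.33 ± 0.12, edgeR, adjusted p = 0.954). Gene body regions of the deep-layer factor Bcl11b (chr12:107969510-107970402) and of Foxp2 (chr6:14968673-14969168) stood at 0.20 ± 0.08 and 0.27 ± 0.11 on the log2 scale. In all 3 regions the groups overlapped in both tables.

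Non-neuronal markers were present among the joined regions of these NeuN-sorted nuclei. Promoter regions were joined for 5 astrocyte, 3 oligodendrocyte, and 1 each of precursor, microglial and vascular marker genes. Levels are given here as CPM per kb of region, as the median over the promoter regions of a list in each library. They were 13.6 to 18.9 for astrocyte and 14.1 to 17.1 for oligodendrocyte markers in the female libraries, and 11.4 to 15.5 and 11.9 to 16.4 in the male ones. Upper-layer markers were above both in every library, at 19.4 to 21.4 in females and 17.7 to 25.4 in males. Interneuron markers were at 10.6 to 14.8 and 7.55 to 11.4. The vascular promoter was at 22.6 to 28.3 and 17.2 to 21.5, above upper-layer markers in females. The precursor promoter was at 13.5 to 22.2 and 17.6 to 23.9, and the microglial promoter at 14.9 to 16.5 and 15.2 to 18.5. Over all libraries, deep-layer markers were at 18.5 to 29.5, but postsynaptic density genes were at 11.8 to 18.8, like astrocyte markers. Neuronal lists were thus not uniformly above non-neuronal ones. Regions near astrocyte markers were higher in 32 of 46 (median 0.036), near precursor markers in 13 of 18 (0.030), near microglial markers in 14 of 25 (0.023), near vascular markers in 12 of 23 (0.019) and near oligodendrocyte markers in 16 of 48 (-0.024), beside 43.1% of all regions within 100 kb. Female and male medians were -0.116 and 0.004 for oligodendrocyte and -0.037 and 0.025 for vascular markers. For astrocyte, precursor and microglial markers they were positive in both tables.

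The single regions with the lowest p of these lists were as follows in log2 fold change: 0.34 ± 0.14 in the body of the receptor gene Bmpr1b (chr3:142117160-142117685; 0.93 in the female and 0.10 in the male table), -0.33 ± 0.10 for the region within Tll2 nearest to the myelin gene Opalin (chr19:41113999-41114507; -0.76 and -0.17), 0.15 ± 0.10 in Bcas1 (chr2:170354988-170355428; 0.45 and 0.01), 0.31 ± 0.10 near Siglech (chr7:55759320-55759837; 0.23 and 0.34) and 0.53 ± 0.15 in the von Willebrand factor gene Vwf (chr6:125561620-125561887; 0.71 and 0.46). The smallest adjusted p of the 5 was 0.825 (edgeR). For Vwf, male medians were 4.95 CPM in EE (3.07 to 5.46) and 3.63 CPM in SH (2.18 to 4.57), and groups overlapped in both tables.

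Of the remaining lists, chromatin regulators had 43 of 117 regions higher (36.8%, median -0.025), neurotrophic and growth factor genes 44 of 84 (52.4%, 0.002) and axon guidance and adhesion genes 83 of 140 (59.3%, 0.018). Among all regions within 100 kb 43.1% were higher. The axon guidance median was -0.002 with 1 surrogate variable (67 higher, 73 lower) and -0.014 with the promoter share as a covariate (56 higher, 84 lower). A gene body region of Arid1b, a subunit of the BAF remodelling complex (chr17:5093383-5093752), had male EE libraries at 1.59 to 1.84 CPM and male SH libraries at 1.97 to 2.84 CPM, apart, and overlapping females (-0.41 ± 0.14 over both tables, edgeR, adjusted p = 0.954). A region 40.9 kb upstream of Igf2r, the mannose-6-phosphate and IGF2 receptor gene (chr17:12810442-12810718), stood at -0.41 ± 0.16. The intergenic region 23.1 kb upstream of Epha5, an ephrin receptor gene (chr5:84440230-84440651), had 9.77, 8.11 and 6.88 CPM in female EE against 6.30, 5.47 and 4.34 CPM in female SH libraries and male medians of 14.4 and 11.2 CPM (0.35 ± 0.11, edgeR, adjusted p = 0.908).

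**Figure D5:**
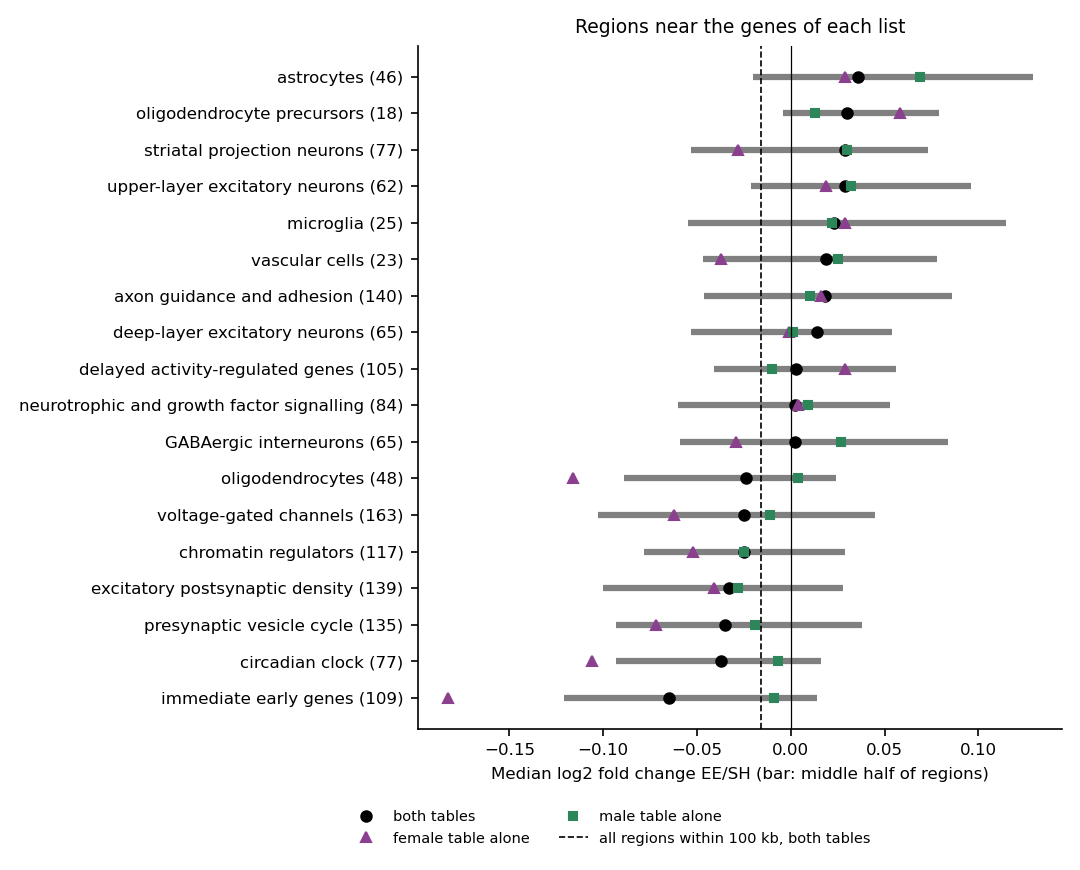
Median log2 fold change (EE over SH) of the regions near the genes of each of the 18 lists (number of regions in parentheses), over both tables (circles, with the interquartile range of regions as a bar) and in the female (triangles) and male (squares) table alone; the dashed line marks the median of all regions within 100 kb of a gene start (-0.016). Medians run from -0.065 for immediate early genes, where the female table has -0.183 and the male one -0.009, to 0.036 for astrocyte markers.

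Nuclear RNA of the nearest genes, from the 24 RNA libraries of the series fitted the same way, gave a readout that the joining did not use. In that fit 1151 of 15562 genes had an unadjusted p under 0.05 (7.4%, with 3.85% higher and 3.55% lower in EE), and 2 were called (0.0129%), Trps1 (0.25 ± 0.04, edgeR, adjusted p = 0.0016) and Lmo7 (0.24 ± 0.04, adjusted p = 0.026). The number of RNA calls depended on the libraries used, from 1 to 25 over single libraries left out, with 25 without female SH RNA replicate 2. Joined ATAC regions nearest to Trps1, a zinc finger repressor gene, were higher in EE in 11 of 12, and those nearest to Lmo7 in 14 of 16, with a median log2 fold change of 0.05 for each. Of all joined regions 48.1% were higher, and 62.5% of those beyond 100 kb from a gene start. No distance limit was set, and regions up to 476 kb from the start of Lmo7 were counted. Regions of 1 locus are not independent, and the Trps1 region with the smallest p was lower in EE (-0.11 ± 0.07). The Lmo7 set held 1 region with an unadjusted p under 0.05 and the Trps1 set 0. Of the 27 regions named, 22 had a nearest gene in the RNA fit, and in 13 of these the region and the RNA differed in the same direction. The same share over all joined regions was not computed, so 13 of 22 says nothing about a link between region and RNA. Hrasls5, Zfp966, Cd5, Sp8 and 1700024P04Rik were not among the genes fitted. The BMP receptor gene Bmpr1b had the RNA value closest to the threshold among the nearest genes (0.41 ± 0.10, adjusted p = 0.125), with its region at 0.34. The next, Arntl, went the other way, with RNA at 0.13 ± 0.04 (adjusted p = 0.303) and its region at -0.19. So did Arid1b, with RNA at 0.07 ± 0.03 (adjusted p = 0.581) and its region at -0.41, while Tiparp RNA was at 0.23 ± 0.27 and its region at 0.73.

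The largest fold change of all, a log2 value of 2.25 ± 1.04 (edgeR, adjusted p = 0.954), came from an intergenic region 487 kb from the start of Cntnap5b (chr1:99285318-99286212) that was either open or at the floor of the table. A count of 1 was the smallest value in both ATAC tables. In the female table the counts were 30, 303 and 253 in EE and 1, 125 and 1 in SH libraries, and among males 2 of 6 EE and 6 of 7 SH libraries had a count of 1 while the others had 318 to 703. With libraries of both housings in both states, the fitted fold change describes how many libraries were in each. By a rule chosen after this region was seen, 3 or fewer counts in at least 1 library and at least 100 in another of the same table, 7 joined regions were of this kind, and none had an adjusted p under 0.954. The others were nearest to B4galnt1, Farp1, Kcnt1, Alx4, Adgra3 and Zic4.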

How the data were processed

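Of the 43 libraries of the series, the 19 ATAC libraries were compared by housing, and 24 RNA libraries served beside them. The authors deposited counts per region for each ATAC table and counts per gene for RNA, which are whole numbers with totals that differ between libraries and were taken as not normalized. Build mm10 and the tools DiffBind 3.2.2, MACS2 2.1.1, STAR 2.5.4, bedtools, edgeR, SAMtools 1.3.1 and DESeq2 1.16.1 come from the submitters' processing notes. Which program counted reads, and with what filters, is not given in the sources used here. Neither is whether region starts count from 0 or 1, so coordinates are printed as deposited. Regions were assigned to the nearest of 20166 autosomal protein-coding gene starts, measured from the region's midpoint. Of 53379 gene IDs, 53274 matched a symbol.

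Counts were fitted in edgeR 4.0.16 (R 4.3.3) with trimmed-mean (TMM) scaling, its default low-count filter, the table as a block and a robust two-sided quasi-likelihood F test. Values with ± in log2 units are standard errors. RNA was fitted likewise, with the columns of the male RNA table, whose header is 1 name short, taken by position. Alternatives were DESeq2 1.42.0, limma-voom 3.58.1, a surrogate variable (sva 3.50.0), other scalings, filters and overlaps, a replicate block and each library left out. Tests were tested on simulated data. The members, lists, tests and most alternatives were chosen with earlier results of these data known. Named regions are the 5 with the smallest p in each direction and the one with the smallest p near each list. Promoter sequences are from RefSeq (GRCm38.p6), where 11 of the 16 immediate early promoters and 1 of the leading promoters, that of Zfp966, matched a window. No 2 libraries of a group agreed within sampling noise (chi-square per degree of freedom).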

Additional observations from a re-analysis of the deposited data

Results flagged for a closer look

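Among 68 sets of 6 or 7 male libraries, for the named regions and the 7 library measures, the gap of the highest and lowest library was set against the range of its group, and 5, all for named regions, stood far from the others by Dixon's criterion, where chance gives about 1 in 20. At the region near Tiparp, male SH replicate 6 was the highest of its group at 3.45 CPM. The same library was the highest at the region near Sp8, at 23.5 CPM, and at the region in Foxp2, at 9.7 CPM. Without it the log2 fold changes were 0.85 (Tiparp), 0.42 (Sp8) and 0.34 (Foxp2), and none was called (edgeR, adjusted p = 0.0545, 0.136 and 0.346). At the region near Sp8, male EE replicate 4 was the highest of its group at 28.4 CPM, and without it the log2 fold change was 0.33. At the region near Cftr, male EE replicate 3 was the lowest of its group at 12.3 CPM, and without it the log2 fold change was 0.54.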

How the results depend on the processing

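The count of called joined regions was 0 in 29 of 32 alternatives. The alternative without a low-count filter repeats the main fit, since the default filter removed no joined region (48633 tested in each). It is no separate check, here or for the list medians. DESeq2 called 5, 1 higher and 4 lower (Hrasls5, Cd5, Fra10ac1, Zfp966 and Tiparp, adjusted p from 0.0248 to 0.034), a surrogate variable gave 1 (nearest to Olfr1423, -0.25, adjusted p = 0.00596), and over each library left out the count ran from 0 to 1, with 1 region called without male SH replicate 3 (nearest to Kcng2, 0.66, adjusted p = 0.0375). The count at an unadjusted p under 0.05 was 735 with an overlap of at least 75% (15651 regions) and 5102 with at least 25% (92043 regions). It ran from 1993 to 4328 over single libraries left out, with 4328 without male SH replicate 6, where the cause was not tested. With the replicate block 0 regions were called and 2054 had an unadjusted p under 0.05. The labels do not say that numbers pair samples, and the deviations of same-numbered ATAC libraries correlated at -0.182 to 0.216, with 3 of 9 pairs best with their own number. For the 27 named regions, 844 of 849 values kept direction and side of the threshold, the 5 others being the DESeq2 calls, and 0 reversed. These regions were chosen by their p in the same data, and the alternatives reuse the same libraries or all but 1 of them. Kept directions were therefore favoured by the choice, and none of the regions was called to begin with, so the count is no measure of robustness.

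The 2 called RNA genes became 16 with DESeq2's size factors in edgeR, 45 with DESeq2, 23 without a filter and 11 with the replicate block, and 1 to 25 over single libraries left out, with 25 without female SH RNA replicate 2. On ranks, the difference in the second principal component turned sign, with an exact permutation p of 1.0. Leaving aside the promoter share covariate, which lowers promoter differences by construction (-0.003 and 0.007), the median of promoter regions ran from -0.052 to -0.021 and that of intergenic regions from 0.018 to 0.039 over the other alternatives. The female table has 3 libraries a group, which limits what it can show, and intervals on region values cover the spread of these libraries only.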
